A study of Mus musculus with 60 samples.

Results

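Mzt2 (ENSMUSG00000022671) is 1 of the 9066 genes in the deposited gene table, and it has 3 of the 114691 exon rows in the deposited exon table. It was selected on its deposited gene value, which was lower in mice that responded in a test of catalepsy, so every difference between responders and non-responders in Mzt2 and its exon rows is given here as a description, with no test. The tissue was striatum, dissected by hand from 60 mice of the HS-CC, a heterogeneous stock founded from the inbred strains of the Collaborative Cross, and polyA RNA was sequenced in 1 library per mouse. All mice, responders and non-responders alike, came from earlier generations selectively bred for their response to haloperidol, a dopamine receptor blocker that can cause catalepsy, a state of immobility. The labels give each mouse its sex and whether it was a catalepsy responder or non-responder. Of the females 13 were non-responders and 15 responders, and of the males 17 were non-responders and 15 responders. Age, family and any drug given before the tissue was taken are not among the labels used here. Each mouse gave 1 library, so p-values measure the spread between mice. They treat the mice as independent, which could not be checked without the family of each mouse.

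Mzt2, also called MOZART2, encodes mitotic spindle organizing protein 2, a small protein that associates with the gamma-tubulin ring complex. This complex holds gamma-tubulin in a ring from which the alpha and beta tubulins of a new microtubule assemble. In dividing cells it acts mainly at the centrosome, and in neurons, which do not divide, microtubules also grow from sites away from it.

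In the GENCODE M21 annotation of GRCm38, Mzt2 lies on the minus strand at chr16:15848441-15863369, spans 14929 bases and overlaps no other annotated gene. The names of the exon rows carry exon starts on NCBI m37, the build the authors aligned to, which are 15862841 for the first exon, 15862491 for the middle exon and 15848534 for the last exon of the gene. The distances of the middle and last rows from the first, 350 and 14307 bases, equal those between the 3 exons of transcript Mzt2-201. The annotation holds 4 transcripts of Mzt2, and the row names give no exon ends, so this match rests on the starts. These exons are 600, 146 and 289 bases long, and intron 2 separates the last exon from the others by most of the length of the gene. The coding parts of the 3 exons in GRCm38 are printed here to show which part of the message each exon row counted, with the start codon and the stop codon in capitals, and together they hold 480 bases.
First exon, coding part (chr16:15862748-15862923, minus strand): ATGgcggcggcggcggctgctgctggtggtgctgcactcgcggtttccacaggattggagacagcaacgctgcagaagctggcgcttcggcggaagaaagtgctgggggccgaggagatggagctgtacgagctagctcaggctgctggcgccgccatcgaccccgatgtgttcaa
Middle exon, all coding (chr16:15862398-15862543, minus strand): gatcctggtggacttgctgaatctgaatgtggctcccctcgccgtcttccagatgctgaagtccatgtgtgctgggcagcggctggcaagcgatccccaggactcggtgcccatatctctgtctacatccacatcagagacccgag
Last exon, coding part with the stop codon (chr16:15848572-15848729, minus strand): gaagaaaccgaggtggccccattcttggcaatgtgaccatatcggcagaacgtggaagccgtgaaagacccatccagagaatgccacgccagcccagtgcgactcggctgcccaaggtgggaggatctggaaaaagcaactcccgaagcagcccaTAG
Matched to Mzt2-201, the first exon row covers the start of the coding sequence and the 5′ end of the message, and the middle and last exon rows cover the rest.

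Between 4913122 and 21872744 reads were recovered per library, with a median of 14520042, and 17 libraries under 10000000 reads (8 responders and 9 non-responders) stood apart in depth from the other 43. Mice 63, 5, 4 and 62 had the strongest 3' bias, at 1.62, 0.963, 0.722 and 0.498, where the bias is the median over 2173 genes of the log2 change from first to last exon relative to the average mouse. Mouse 63 was a female responder, mouse 5 a female non-responder, mouse 4 a male responder and mouse 62 a male non-responder. Of 10 striatal neuron markers, 8 were in the gene table and none was at 0 in any mouse. Their summed value was between 61610 and 141200 per mouse. Over 8 lists of cell type markers, 23 of 44 genes were in the table, and none passed the test between responders and non-responders in the limma fit (smallest adjusted p = 0.338, 1 gene at an unadjusted p under 0.05), where 0.105% of all genes did. Their differences were between -0.16 and 0.19 on the log2 scale. None of the 5 ependymal markers was in the table, and of the 5 dividing cell and neuroblast markers only Dcx and Sox11 were.

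Mzt2 was a gene of modest level. Its gene value, a read count scaled by the upper quartile factor of the library, averaged 269 over the 60 mice, and 27.1% of the genes in the table averaged less. Behind these values stood 72 to 524 reads per mouse, with a median of 266.5, for which counting alone gives a coefficient of variation of 11.8% at the lowest and 4.4% at the highest. Between mice the coefficient of variation was 28.8%.

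Responders had less Mzt2 than non-responders, and most responders lay in the lower part of the range. In the 30 non-responders the gene value was 182 at the lowest, 311 at the median and 485 at the highest, with a mean of 309 ± 82.4 (SD). In the 30 responders it was 182 at the lowest, 217 at the median and 377 at the highest, with a mean of 229 ± 46.2 (SD). Both groups reached down to the same value, and the groups differed in how many mice lay high. Of the 20 mice with the highest value 2 were responders, mouse 63 at 376.5 and mouse 7 at 364.1, and 6 non-responders lay above both. Below the median of all mice, 245, lay 21 responders and 9 non-responders. The fitted difference, responder minus non-responder with sex as a covariate, was -0.41 (SE 0.081) on the log2(value + 1) scale, and the ratio of the geometric means was 0.755. As background, 9 of 8535 genes tested passed an adjusted p of 0.05 in this contrast in either direction (0.105%), and 5 of them were lower in responders (0.0586%). Mzt2 was among them, which is what its choice fixes. In bulk tissue, fewer cells with the message and less message per cell cannot be told apart. The exon rows that make up the gene value did not differ alike, as given below. The difference is therefore not that of a message lower by the same share along its length, and its cause was not tested.

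**Figure D1:**
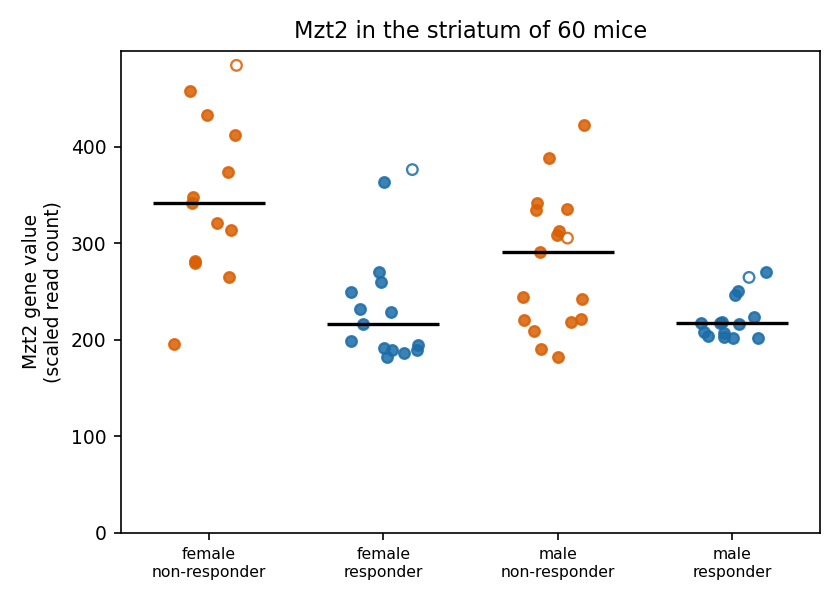
Mzt2 gene value (scaled read count, vertical axis) in each of the 60 mice by sex and catalepsy response, with black lines at the group medians and open circles for mice 4, 5, 62 and 63, which had the strongest 3' bias. The responders of both sexes lie mostly in a low band around medians of 217, while non-responders reach from the same band up to 485.

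The difference was present in both sexes. Female non-responders had values of 196 at the lowest, 342 at the median and 485 at the highest, and female responders 182, 217 and 377. A single female non-responder, at 195.7, lay below the median of the female responders. Male non-responders had values of 182, 291 and 423, and male responders 202, 217 and 270. The spread of male responders, an SD of 23.2, was the smallest of the 4 groups, against 71.0 in male non-responders. Female responders had an SD of 61.6 and female non-responders 83.6. As a share of the mean these were 26.2% and 24.1%, so female responders were not the narrower group on that measure. Fitted within each sex, the difference was -0.56 (SE 0.13) in females and -0.29 (SE 0.098) in males.

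Sex was not used to choose Mzt2, so it was tested. Males averaged 254 ± 60.8 (SD, n = 32) and females 287 ± 91.0 (SD, n = 28). The fitted difference, male minus female with response as a covariate, was -0.17 (SE 0.081). By limma its unadjusted p was 0.036 and its adjusted p 0.99998. Of 8535 genes 3 were called by sex (0.0351%), and Mzt2 was not. The test of whether the response difference itself differed between the sexes gave 0.26 (SE 0.16) on the log2 scale, with an unadjusted p of 0.107 and an adjusted p of 0.99998 by limma. No gene passed the interaction test by limma, edgeR or DESeq2, and 48, 44 and 48 genes had an unadjusted p under 0.05. A difference in size between females and males was therefore not shown.

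The response difference was of like size in both sets of libraries. The fitted response difference was -0.43 (SE 0.094) among the 43 deep libraries and -0.39 (SE 0.15) among the 17 shallow ones. The gene value was correlated with 3' bias (r = 0.30, Benjamini-Hochberg adjusted permutation p = 0.04 over 13 relations, rho = 0.16, adjusted p = 0.468, n = 60). Without the 2 mice farthest in bias r was 0.078, and without mice 4, 5, 62 and 63 it was 0.038, so the relation rested on those mice. The median 3' bias was -0.017 in responders and -0.050 in non-responders. Without the 4 mice the response difference was -0.42 (SE 0.079), and the highest responder left was mouse 7.

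The exon rows divided the gene into a part that differed and a part that hardly did. The first exon row had values of 99 at the lowest, 128.5 at the median and 179 at the highest in non-responders, and 80, 119.5 and 180 in responders. No non-responder lay above the highest responder in this row, which was mouse 63, of the strongest 3' bias. The groups overlapped over nearly the whole range. Without mouse 63 the fitted difference of this row was -0.12 (SE 0.055), against -0.10 (SE 0.058) with all mice. The middle exon row had values of 28, 69.5 and 144 in non-responders against 24, 40 and 83 in responders, and 11 non-responders lay above the highest responder. The last exon row had values of 40, 109 and 196 in non-responders against 39, 60.5 and 132 in responders, and 9 non-responders lay above the highest responder. Responder means were 0.604 of the non-responder means in the middle row, 0.601 in the last row and 0.935 in the first. The fitted differences were -0.65 (SE 0.13) for the middle row, -0.68 (SE 0.13) for the last row and -0.10 (SE 0.058) for the first. As background, 12 of 67578 exon rows tested passed in this contrast (0.0178%), 5 of them lower in responders (0.0074%). The rows of Mzt2 are not read against this share, since the gene was chosen on the same contrast.

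**Figure D2:**
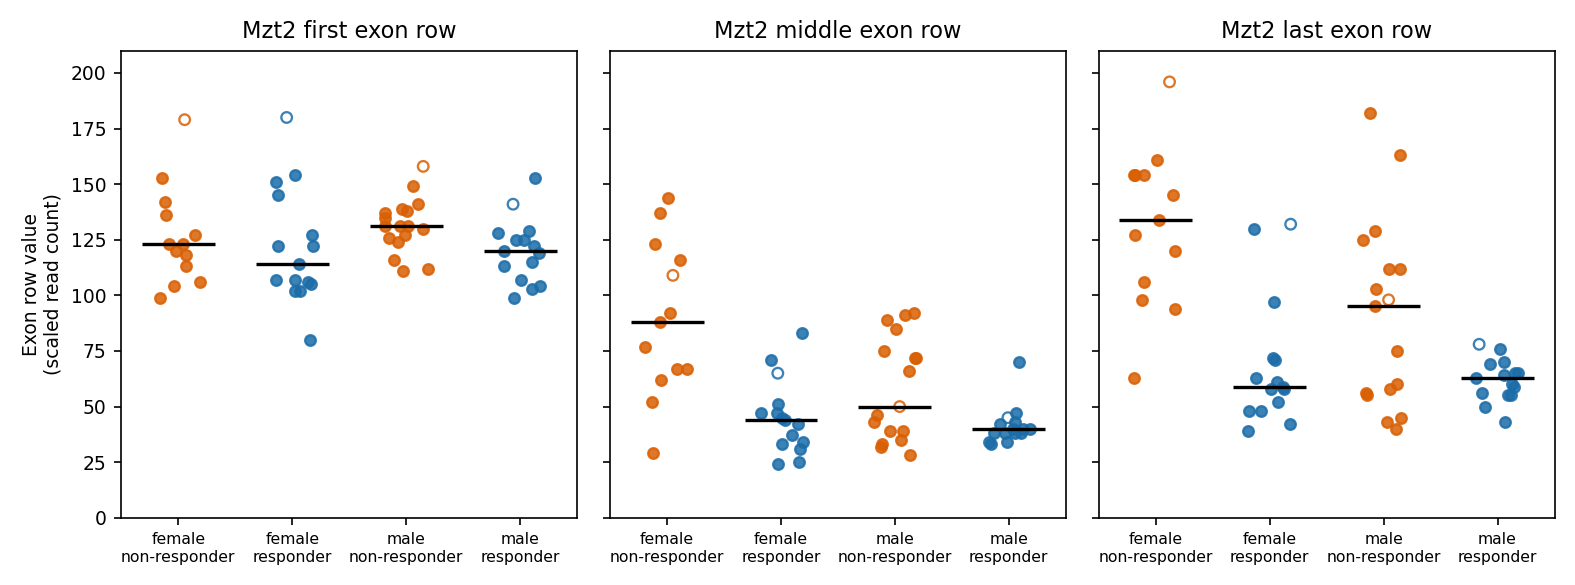
Values of the 3 Mzt2 exon rows (scaled read count, shared vertical axis) in each mouse by sex and response, with black lines at the medians and open circles for mice 4, 5, 62 and 63. The 4 groups sit at one level in the first row, with medians from 114 to 131, and the responders sit low in the middle and last rows.

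In each sex and in each set of libraries the middle and last rows were lower in responders by more than the first row. The gap between the rows was smaller in males than in females. In females the fitted differences were -0.97 (SE 0.18) for the last row, -0.93 (SE 0.21) for the middle row and -0.07 (SE 0.11) for the first. In males they were -0.42 (SE 0.17), -0.39 (SE 0.16) and -0.13 (SE 0.065) in that order, so the first row leaned lower too. Female non-responders had a last exon row of 63 at the lowest, 134 at the median and 196 at the highest, and 39, 59 and 132 was the range and median of female responders. Male non-responders ran from 40 to 182 with a median of 95, and male responders from 43 to 78 with a median of 63. Male non-responders thus covered both the low band of the responders and a range far above it. Among deep libraries the last row differed by -0.71 and the first by -0.11, and among shallow libraries by -0.60 and -0.09.

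By sex, the difference, male minus female, was -0.34 (SE 0.13) for the last and for the middle row and 0.04 (SE 0.058) for the first. The unadjusted p by limma was 0.012 for the last, 0.015 for the middle and 0.538 for the first row. The adjusted p values were 0.99995 over 67578 exon rows, of which 1 was called (0.00148%). No exon row of the table passed the interaction test by limma (798 had an unadjusted p under 0.05). The interaction was 0.55 (SE 0.25) for the last row, 0.54 (SE 0.26) for the middle row and -0.07 (SE 0.12) for the first, on the log2 scale. Its unadjusted p by limma was 0.035, 0.042 and 0.569 in that order.

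The middle and last rows moved together from mouse to mouse. Their correlation over 60 mice was r = 0.88 (rho = 0.84, both permutation p at 1e-05, the smallest the resamples allow, adjusted p = 0.00013), and it was 0.72 within responders and 0.89 within non-responders. Both rows count the same gene in the same libraries, and both carry the response difference for which Mzt2 was chosen. A p-value against no correlation therefore adds no support here, and the size of r is given as a description. The first row followed them less, with r = 0.41 for the last (adjusted permutation p = 0.00338, rho = 0.40) and r = 0.41 for the middle (adjusted permutation p = 0.00338, rho = 0.41). The first row counts the same gene in the same libraries too, so these p-values add no support either. The value of the last row was 1.52 times that of the middle row at the median of responders (0.933 to 2.32) and 1.46 times at that of non-responders (0.93 to 2.48). In share of the 3 rows, the first row took 54.6% at the median of responders and 41.3% at the median of non-responders.

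To put this in 1 number per mouse, the exon ratio was taken as the middle and last rows summed over the first row, a measure chosen after the exon values had been seen. It had values of 0.64 at the lowest, 1.42 at the median and 2.31 at the highest in non-responders, and 0.598, 0.831 and 1.65 in responders. In female non-responders it was 0.885 at the lowest, 1.70 at the median and 2.31 at the highest, and in female responders 0.598, 0.779 and 1.65. In male non-responders it was 0.64, 0.937 and 1.84, and in male responders 0.641, 0.872 and 1.17. The medians of the response groups were far apart in females and close together in males. In males the groups differed mostly in how far up the non-responders reached. Thus 11 non-responders lay above every responder, and 1 responder lay below every non-responder. No relation of the ratio to 3' bias (r = 0.026, adjusted permutation p = 0.852) or to depth (r = -0.073 with log2 reads, adjusted permutation p = 0.751) passed the test. The first row alone followed the bias (r = 0.52, adjusted permutation p = 0.000325), and without the 4 mice that r was 0.18.

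**Figure D3:**
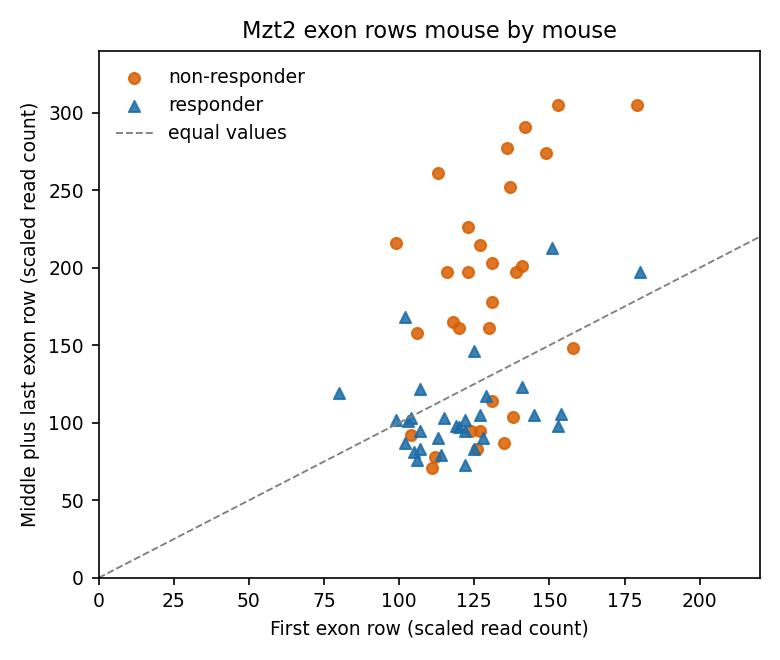
The middle and last exon rows of Mzt2 summed (vertical axis, scaled read count) against the first exon row (horizontal axis, scaled read count), 1 point per mouse, circles for non-responders and triangles for responders, with the line of equal values dashed. Most responders lie under the line, and the non-responders fall on both sides of it up to a ratio of 2.31.

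The partners of Mzt2 in microtubule nucleation were looked at next. Of 10 genes of the gamma-tubulin ring complex list 9 were in the table, and none was called by response by limma or by edgeR (none at an unadjusted p under 0.05 by limma). With 0.105% of all genes called, no call is the number that the share over all genes gives for a list of this size, so the count says nothing particular to the list. Their differences were from -0.08 to 0.08 with a median of 0.0019, against -0.0033 over all genes tested. Mzt1, the other small MOZART protein of the complex, had a value of 1025 at the lowest, 1765 at the median and 2797 at the highest in non-responders and 1101, 1978 and 2638 in responders (difference 0.08, SE 0.084, adjusted p = 0.999). Tubg2, a gamma-tubulin, had medians of 321 and 328 (difference 0.03, SE 0.048). Of the gamma-tubulin complex proteins that build the ring, Tubgcp2 differed by -0.03, Tubgcp3 by -0.03, Tubgcp4 by -0.03, Tubgcp5 by 0.0084 and Tubgcp6 by -0.08, with SEs from 0.035 to 0.094. Nedd1, which brings the complex to the centrosome and spindle, differed by 0.04 (SE 0.085), and Nme7, a kinase bound to the complex, by 0.0019 (SE 0.063). Across mice none of the 9 followed Mzt2 closely, with r between -0.29 (Tubgcp4) and 0.18 (Tubgcp3).

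The wider lists were described in the same way. Over the 4 lists of the pathway 43 of 72 genes were in the table, 25 with a positive and 18 with a negative difference, and none was called by limma (1 at an unadjusted p under 0.05), again at the share over all genes (0.105%). In the list of gamma-tubulin recruitment factors and augmin subunits 10 of 18 genes were tested, with a median of 0.02 and a range from -0.03 to 0.10, and the 3 of smallest p were Haus4 (0.10), an augmin subunit, Ckap5 (-0.03), a microtubule polymerase, and Cep152 (0.04), a centriole scaffold. In the centriole and centrosome list 16 of 26 were tested, with a median of 0.02 and a range from -0.08 to 0.17. Cep63, which acts with Cep152 in centriole duplication, had the smallest p of all 43 genes, with a difference of 0.17 (SE 0.062, adjusted p = 0.402). Cep68 (-0.08) and Cep250 (0.08), both of the link between centrosomes, followed. In the list of tubulins and folding cofactors 8 of 18 were tested, with a median of -0.02 and a range from -0.09 to 0.04. There the 3 of smallest p were the neuronal beta-tubulin Tubb3 (-0.09) and the tubulin cofactors Tbcc (-0.05) and Tbcd (0.04).

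Which genes varied with Mzt2 from mouse to mouse was asked over all 60 mice, with Pearson and Spearman correlations of log2(value + 1) and permutation tests of 100000 resamples. By Pearson, 874 of 8534 genes passed an adjusted p of 0.05 (10.2%), 481 of them with a positive r, and by Spearman 526 did. This count rested on a few libraries, since it was 274 without mouse 63 and 16 without mice 4, 5, 62 and 63. The 10 genes named next, the 5 highest and the 5 lowest r, passed in each of these settings. Their permutation p was 1e-05, the smallest the resamples allow (adjusted p = 0.00406), save for Top3b (adjusted p = 0.00551).

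All 5 genes with the lowest Pearson r lay on chromosome 16, as Mzt2 does, a chromosome that held 287 of the 8534 genes (3.36%). By Spearman this did not hold, as Rest on chromosome 5 (rho = -0.58) and Clmn on chromosome 12 (rho = -0.57), named here after their values were seen, lay below 3 of them. Of the 10 genes with the largest absolute correlation 6 were on chromosome 16 by Pearson, 2 by Spearman, 2 after response and sex were removed, 0 in responders only and 7 without the 4 mice of strong 3' bias. Klhl24, an adaptor of a cullin ubiquitin ligase, had the lowest, r = -0.69 (rho = -0.74), 4.23 Mb away. Its value ran from 1039 to 2512 in responders (median 2055) and from 1186 to 2502 in non-responders (median 1843), and it was low in the mice in which Mzt2 was high. Gm15950, a gene model of no assigned function 1.93 Mb away on the other side, had r = -0.65 (rho = -0.60) but a mean value of only 31.4. Ppm1f, a phosphatase that acts on calcium/calmodulin-dependent kinase, had r = -0.62 (rho = -0.55) at 1.03 Mb. Ufd1, a cofactor of the p97 ATPase in protein degradation, had r = -0.60 (rho = -0.53) at 2.95 Mb. Top3b, a topoisomerase, had r = -0.59 (rho = -0.53) at 1.01 Mb. Without the 2 mice farthest from the median of Mzt2 the 5 values were between -0.57 (Top3b) and -0.65 (Klhl24), and without the 4 mice of strong 3' bias they were between -0.61 (Ppm1f) and -0.72 (Klhl24).

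The 5 genes with the highest r lay on 5 other chromosomes. Dctn5, a subunit of dynactin, the partner of the dynein motor, had r = 0.66 (rho = 0.63), with values of 490 at the lowest, 722.5 at the median and 843.7 at the highest in non-responders and 511.6, 608.4 and 821.6 in responders. E130309D02Rik, an uncharacterised gene, had r = 0.60 (rho = 0.61), Jagn1, a protein of the endoplasmic reticulum, 0.59 (rho = 0.57), Glmp, a lysosomal membrane protein, 0.58 (rho = 0.65), and Rnf187, a RING-type ubiquitin ligase, 0.56 (rho = 0.56). Without the 4 mice these values were between 0.51 (Rnf187) and 0.63 (Dctn5).

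The 10 correlates split by the exon row they followed. Ufd1 had r = -0.02 with the first exon row, -0.66 with the middle row and -0.64 with the last row. Top3b had -0.25, -0.54 and -0.60, and Ppm1f -0.27, -0.55 and -0.65. Klhl24 and Gm15950 followed all 3 rows, with -0.66, -0.54 and -0.62 for Klhl24 and -0.50, -0.56 and -0.60 for Gm15950. Jagn1, at 0.70, 0.40 and 0.50, and Rnf187, at 0.61, 0.38 and 0.50, followed the first row most. Within response groups the values also differed between genes, since Klhl24 had r = -0.74 in responders and -0.68 in non-responders, whereas Ufd1 had 0.08 and -0.67 and Top3b -0.21 and -0.67. Whether these within-group values differed was not tested. Log2 Mzt2 varied less in responders (SD 0.25) than in non-responders (SD 0.39), which can limit r there. Mouse 63, of the strongest 3' bias, had the highest Mzt2 among responders, and r in responders without it was not computed. Within the deep and the shallow libraries r was -0.70 and -0.74 for Klhl24, -0.58 and -0.73 for Ufd1, and 0.59 and 0.81 for Dctn5. With response, sex, depth block and 3' bias removed from both genes, 4 of the 10 still passed, Klhl24 (r = -0.62), Gm15950 (-0.60), Ufd1 (-0.58) and Ppm1f (-0.50), all on chromosome 16.

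**Figure D4:**
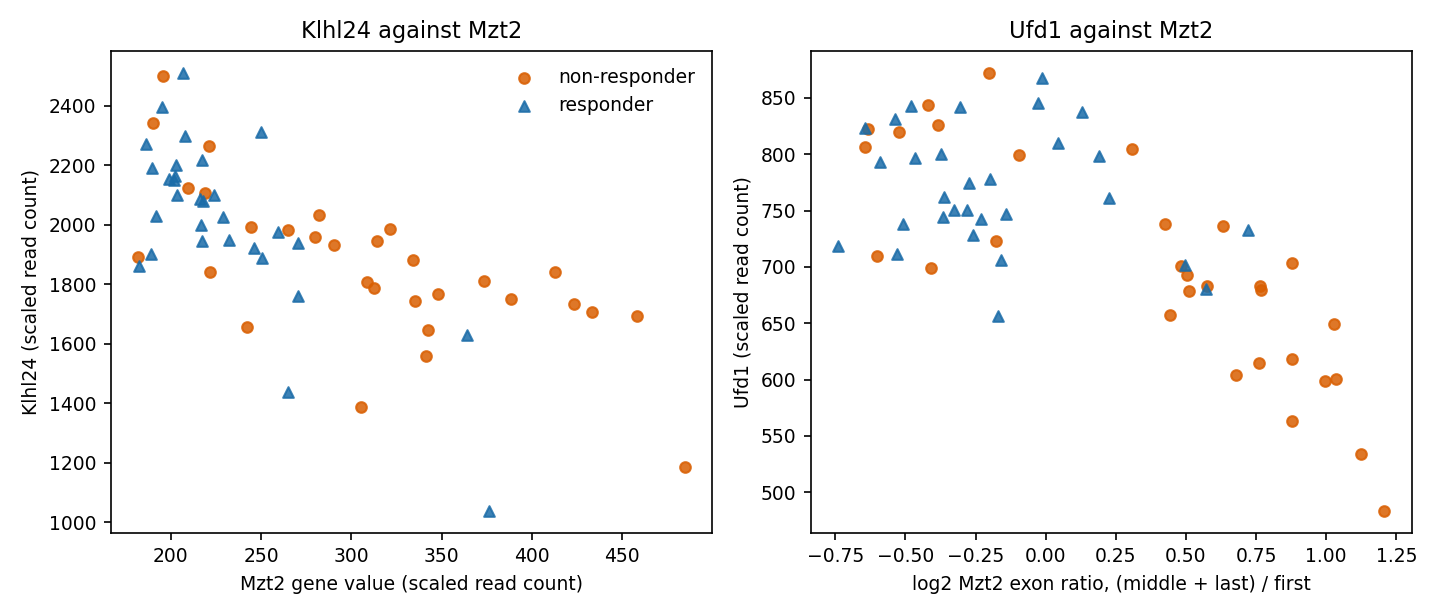
Klhl24 against the Mzt2 gene value (left, both in scaled read counts) and Ufd1 (scaled read count) against log2 of the Mzt2 exon ratio (right), 1 point per mouse, circles for non-responders and triangles for responders. Klhl24 falls as Mzt2 rises in both groups (r = -0.69), and Ufd1 falls along the exon ratio (r = -0.73) mostly among the non-responders.

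With the exon ratio in place of the gene value far fewer genes passed, and most of them lay near Mzt2. By Pearson 7 of 8534 genes passed (0.082%), and 428 had an unadjusted p under 0.05. Of the 7 genes 6 were among the 287 genes of chromosome 16 (3.36% of the genes tested), each with a negative r and each within 4.67 Mb of Mzt2, and the other was Dctn5 (r = 0.51, adjusted p = 0.0284). These genes were chosen after their values were seen. The ratio differed between the response groups, the contrast for which Mzt2 was chosen, and response was not removed in this test. A gene that differs by response can gain r in this way, so the p-values below are no separate support. Ufd1 had r = -0.73 (rho = -0.66), Tmem191c, a predicted membrane protein, -0.61 (rho = -0.47), Ppm1f -0.59 (rho = -0.54) and Top3b -0.56 (rho = -0.55), each with a permutation p of 1e-05, the smallest possible (adjusted p = 0.0213). Ube2v2, a ubiquitin-conjugating enzyme variant, had -0.54 (rho = -0.50, adjusted p = 0.0284), and Ap2m1, a subunit of the clathrin adaptor AP2, -0.50 (rho = -0.44, adjusted p = 0.0488). By Spearman the adjusted p was 0.0213 for Ufd1, Ppm1f and Top3b, 0.171 for Tmem191c, 0.0853 for Ube2v2, 0.384 for Ap2m1 and 0.0569 for Dctn5. Dgkg, a diacylglycerol kinase farther along chromosome 16 at 6.61 Mb, passed by Spearman (rho = -0.54, adjusted permutation p = 0.0213) and not by Pearson (r = -0.50, adjusted permutation p = 0.0533). Without the 4 mice the Pearson values were -0.74 for Ufd1, -0.69 for Tmem191c, -0.58 for Ppm1f, -0.56 for Top3b, -0.57 for Ube2v2, -0.53 for Ap2m1 and 0.52 for Dctn5. Within responders r was -0.21 for Ufd1, 0.13 for Tmem191c, -0.17 for Ppm1f, 0.03 for Top3b, -0.27 for Ube2v2, -0.22 for Ap2m1 and 0.0072 for Dctn5. Within non-responders it was -0.80, -0.71, -0.67, -0.73, -0.54, -0.53 and 0.57 in that order. The log2 ratio varied less in responders (SD 0.36) than in non-responders (SD 0.60), which can limit r there. Among deep and shallow libraries it was -0.73 and -0.75 for Ufd1.

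Along chromosome 16 the size of these correlations fell with distance. The median of the absolute r with the exon ratio was 0.198 over the 6 genes within 1 Mb, 0.196 over 61 genes from 1 to 5 Mb, 0.089 over 25 genes from 5 to 10 Mb and 0.083 over 65 genes from 10 to 20 Mb, and it was 0.089 over the 8247 genes of other chromosomes. With the first exon row the median was 0.27 within 1 Mb, 0.261 from 1 to 5 Mb, 0.376 from 5 to 10 Mb and 0.29 on other chromosomes. Its correlations were thus as large on other chromosomes, and this row followed the 3' bias. A slope of the size seen with the ratio could be hidden by this, so its absence is not shown. All genes were measured in the same 60 libraries, and neighbouring genes are not independent points, so these medians carry no test.

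**Figure D5:**
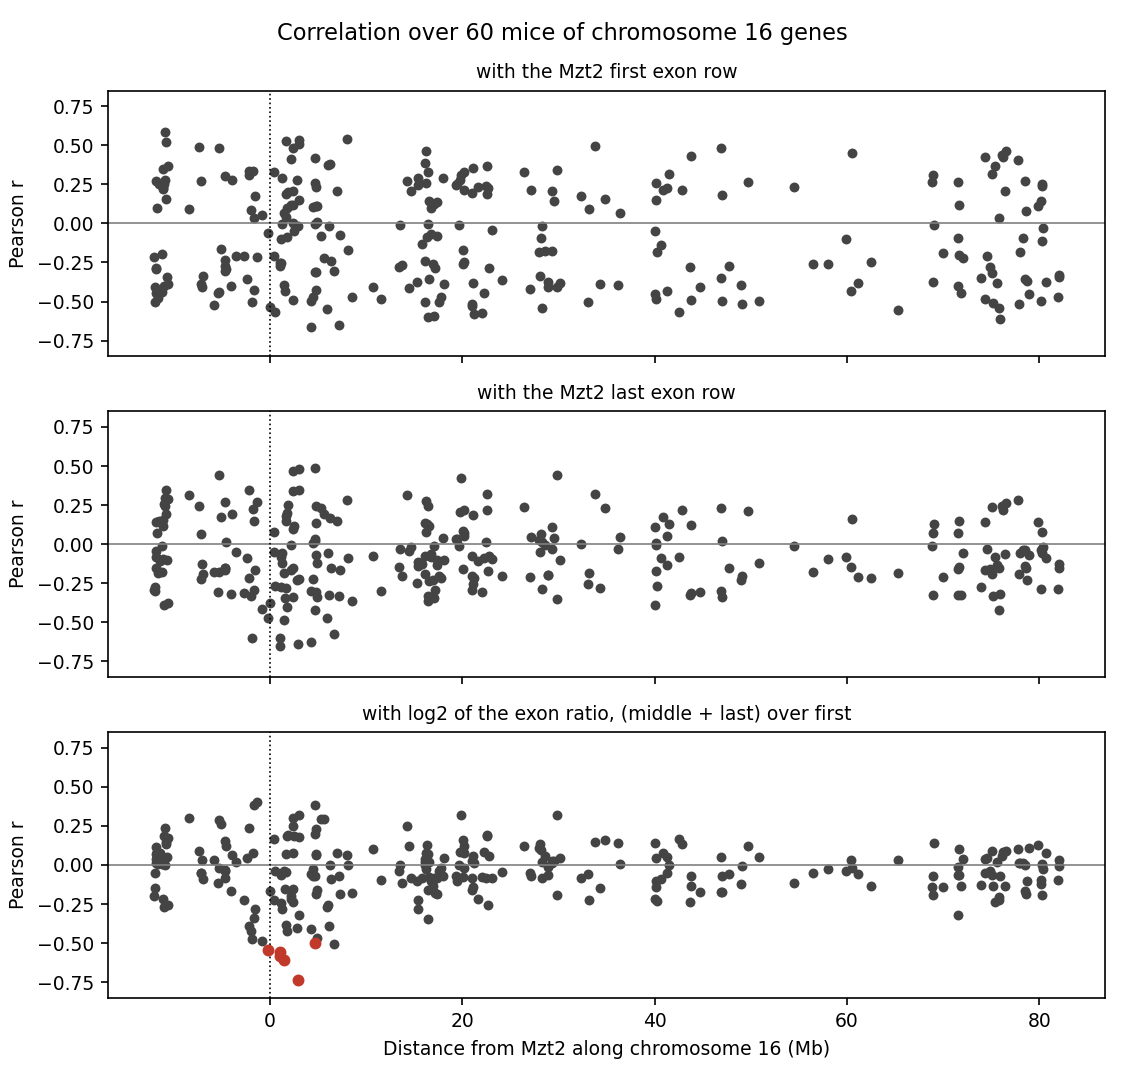
Pearson r over 60 mice between each of 287 genes of chromosome 16 and the Mzt2 first exon row (top), the last exon row (middle) and log2 of the exon ratio (bottom), against the distance from Mzt2 in Mb, with the dotted line at Mzt2 and red points for the 6 genes that passed with the exon ratio. Points of the top panel are spread alike along the chromosome, and the 6 red points of the bottom panel lie within 4.67 Mb of Mzt2.

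The 6 genes of the table within 1 Mb of Mzt2 differed in their relation to it. Prkdc, the catalytic subunit of DNA-dependent protein kinase and the nearest of them, lies 6.2 kb away on the opposite strand. It had r = -0.42 (rho = -0.40, adjusted permutation p = 0.0194) with Mzt2 and -0.53 with its first exon row, and without the 4 mice r was -0.31 (adjusted permutation p = 0.283). The call was also lost without mouse 63 (r = -0.39, adjusted permutation p = 0.0597). Its median was 659 in responders and 622 in non-responders (difference 0.06, SE 0.091, adjusted p = 0.999 by limma). Ube2v2, 252.7 kb away, had r = -0.47 (rho = -0.49, adjusted permutation p = 0.0117), and without the 4 mice -0.61. It ran from 339 to 1116 in non-responders with a median of 539 and from 409 to 998 in responders with a median of 692 (difference 0.32, SE 0.095, adjusted p = 0.205 by limma). Efcab1, a calcium-binding protein of cilia 867.1 kb away, had r = -0.36 (adjusted permutation p = 0.051) and medians of 127 in responders and 102 in non-responders (difference 0.36, SE 0.12, adjusted p = 0.323 by limma). Fgd4, an activator of the Cdc42 GTPase, had r = -0.34 (adjusted permutation p = 0.0618, rho = -0.25), and it followed the first exon row (-0.57) rather than the last (-0.27). Its r with Mzt2 was -0.16 without the 4 mice. Yars2, a mitochondrial tyrosyl-tRNA synthetase, and Dnm1l, the dynamin-related protein of mitochondrial fission, had r = 0.0039 and 0.02, and their response differences were 0.02 (SE 0.035) and 0.0043 (SE 0.038).

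None of the 10 correlates or the 6 neighbours was called by response, against 0.105% of all genes, which gives no call for a list of this size either. The smallest adjusted p among them was that of Ufd1, with a value of 656.7 at the lowest, 761.5 at the median and 867.4 at the highest in responders and 483.4, 695.9 and 872.4 in non-responders (difference 0.16, SE 0.041, adjusted p = 0.0985 by limma). The low Ufd1 values were nearly all in non-responders. Ppm1f differed by 0.14 (SE 0.04, adjusted p = 0.171), Top3b by 0.14 (SE 0.045, adjusted p = 0.279) and Dctn5 by -0.16 (SE 0.045, adjusted p = 0.171). These genes were picked for their relation to Mzt2 in the same mice, and Mzt2 for its response difference, so their response differences are no separate evidence.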

How the data were processed

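PolyA RNA-seq of the striatum of 60 mice was analysed, 1 library per mouse, grouped by sex and catalepsy response as the labels give them. The deposited gene values are a signal that the authors made from reads aligned with Bowtie 0.12.7 to NCBI m37 (mm9), counted on Ensembl 59 union exons without a stated strand setting and then multiplied by an edgeR 3.4.2 upper quartile factor. The deposited exon values are a score that the authors made from exon counts multiplied by such a factor and then rounded to whole numbers. Each gene value was a whole number of steps within 0.001 (100% of values), so whole reads were recovered, and edgeR 4.0.16 and DESeq2 1.42.0 on those reads were alternatives.

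Differences came from limma 3.58.1 with the trend option in R 4.3.3 on log2(value + 1) of genes or exon rows averaging at least 10, with Benjamini-Hochberg adjustment, and fold changes are on that scale. Correlations used Python 3.11.15 with numpy 2.4.6, scipy 1.17.1 and pandas 2.3.3, and figures matplotlib 3.10.9. Both steps were tested on simulated data. Symbols and positions were taken from GENCODE M21, which held 97.7% of the gene identifiers. Named genes were Mzt2, the 5 highest and 5 lowest Pearson r, all genes within 1 Mb, the ring complex list and, in the other lists, called genes or the 3 of smallest p. Mzt2, the lists and the rules were chosen with earlier results of these data known. The exon ratio was added after its values were seen. Permuted p-values are two-sided. The alternatives covered pseudocount, filter, scaling, tool, depth, 3' bias and left-out mice. Protein and promoter sequences of Mzt2 were not used here, and 1 marker gene is not reported here.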

Additional observations from a re-analysis of the deposited data

How the results depend on the processing

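The response difference of Mzt2 was negative in all 15 alternatives for the gene value, from -0.56 (females only) to -0.29 (males only), and the differences of its exon rows kept their direction in all 11 of theirs. The log2 exon ratio, another quantity chosen after seeing the data, differed by -0.57. The sex difference and the interaction stayed uncalled in all 13 alternatives, and the sex differences of the exon rows in all 9. The number of genes called by response, 9, was 20 with the library block as a covariate, 3 in deep libraries, 0 in shallow libraries (160 at an unadjusted p under 0.05 by limma), 61 with 3' bias as a covariate and 23 by DESeq2. With 3' bias as a covariate 1 gene of the centriole and centrosome list was called in place of 0.

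The number of genes correlated with Mzt2, 874, depended most on the setting. It was 548 without the logarithm, 1972 with recovered reads scaled by library total, 2263 after removing response and sex means, 9 after also removing library block and 3' bias, 274 without mouse 63, 16 without mice 4, 5, 62 and 63, and 2016 in responders only. It was 0 in shallow libraries and 0 in non-responders only, with 312 and 864 genes at an unadjusted permutation p under 0.05, and 7 with the exon ratio. The cause of these changes was not tested. Ufd1 turned to r = 0.075 in responders only. Yars2 turned to -0.31 with all covariates removed, -0.44 in shallow libraries, -0.094 without mouse 63, -0.23 without the 4 mice and -0.22 in non-responders. Dnm1l turned to -0.0047 with reads scaled by library total, -0.023 after removing response and sex means, -0.0056 in deep libraries, -0.00598 in shallow libraries and -0.22 in responders.

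No paired analysis was possible because the labels give no replicate numbers that groups share. The 17 shallow libraries hold as few as 72 reads of Mzt2, and 3 exon rows per mouse limit what can be said of single exons.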
